A study of Drosophila melanogaster with 2 samples.

Results

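A group of 10 genes of the Hedgehog signalling pathway was examined for binding of GFP-tagged Six4 in Drosophila melanogaster embryos: hh, ptc, smo, ci, cos, fu, Su(fu), rdx, ihog and boi. They are 10 of the 13945 protein-coding genes annotated on the chromosome arms. They were picked by name with earlier results of these data known, so the counts below are descriptions. Six4 belongs to the sine oculis group of homeodomain proteins, which bind DNA. The measurement was anti-GFP chromatin immunoprecipitation and sequencing (ChIP-seq) of a transgenic line with a stably carried Six4 fusion, GFP at the C terminus. Pooled male and female embryos aged 0 to 16 hours were used whole, so a site bound in a few cells and a site bound weakly in many cannot be told apart. Both samples, biological replicates 1 and 3, belong to this 1 group. No untreated or control group was analysed here, and every value describes this line alone.

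In Hedgehog signalling the secreted ligand Hedgehog binds its receptor Patched together with the co-receptors Ihog and Boi. This frees the membrane protein Smoothened from repression by Patched, and Smoothened then acts through a cytoplasmic complex of Costal2 (cos), Fused (fu) and Su(fu) on the transcription factor Cubitus interruptus (Ci). rdx, also called roadkill, encodes a BTB protein that brings Ci to a Cullin 3 ubiquitin ligase, and both ptc and rdx are known targets of the pathway. In the embryo the pathway is known for maintaining segment boundaries and for patterning the mesoderm.

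Of the 10 genes, rdx carried by far the most Six4-GFP peaks. Peaks came from the authors' set that passed the irreproducible discovery rate (IDR) procedure, 3974 peaks called on build dm6, each with a summit and a signal value. A summit was given to a gene when it lay in the gene body or within 2 kb of it. The 10 windows held 13 of the 3974 summits, 9 of them (69.2%) at rdx and 1 each at ptc, cos, ihog and boi. The windows of hh, smo, ci, fu and Su(fu) held none. Sequence around 4 of these summits is printed here because these are the strongest sites at rdx and the site at ihog. Each run is the plus strand of dm6, read from the RefSeq Release 6 genome, 100 bases to each side of the summit. The ihog run was shortened so that it stays in the gap outside annotated exons. Capitals mark matches, on either strand, to any of 7 words: TGATAC (the core of sites for Six4-type proteins), TATCGATA (the DNA replication-related element), GGTCACACT (bound by M1BP), TGGGTGGTC (bound by Ci), TAATTA (bound by many homeodomains), CAGGTAG (bound by Zelda) and GAGAG (bound by GAGA factor).
rdx, upstream of the rdx-RE start, chr3R:13983573-13983773: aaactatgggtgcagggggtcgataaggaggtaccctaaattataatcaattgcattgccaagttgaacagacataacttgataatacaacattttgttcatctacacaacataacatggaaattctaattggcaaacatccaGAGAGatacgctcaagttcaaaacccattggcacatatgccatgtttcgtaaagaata
rdx, strongest summit, chr3R:14012654-14012854: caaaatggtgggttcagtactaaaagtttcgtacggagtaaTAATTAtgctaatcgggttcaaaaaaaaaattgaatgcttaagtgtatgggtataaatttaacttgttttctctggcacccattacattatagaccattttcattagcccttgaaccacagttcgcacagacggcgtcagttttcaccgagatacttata
rdx, the third strongest, chr3R:14018043-14018243: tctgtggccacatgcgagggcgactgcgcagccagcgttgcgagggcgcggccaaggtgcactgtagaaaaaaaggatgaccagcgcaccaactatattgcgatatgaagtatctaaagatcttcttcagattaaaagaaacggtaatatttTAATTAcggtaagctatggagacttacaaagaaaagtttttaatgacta
ihog, between Gas41 and SA1, chr2L:6950208-6950359: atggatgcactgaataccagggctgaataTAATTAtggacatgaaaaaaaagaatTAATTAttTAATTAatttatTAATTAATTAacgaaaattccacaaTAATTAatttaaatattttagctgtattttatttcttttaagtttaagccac

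The Six4-type core TGATAC lay within 100 bp of none of the 13 summits, while 6.49% of all 3974 summits had it. No match says only that these letters were not in the window. The homeodomain word TAATTA, which is its own reverse complement, lay within 100 bp of 5 of the 13 summits (4 of the 9 at rdx and the 1 at ihog), against 18.4% of all summits. In windows chosen after seeing the data the counts were 2 within 50 bp (10.3% of all) and still 5 within 250 bp (32.7% of all). The 100 bp window at ihog alone held 6 matches, starting at −22, 4, 12, 24, 28 and 49 bp from its summit. Those at 24 and 28 bp overlap. The same ihog window also held TATCGATA (3.40% of all summits), at −60 bp and so outside the printed run. CAGGTAG was found at 1 rdx summit (0.956% of all). GAGAG lay at 3 of the 13 summits (22.5% of all). The Ci word TGGGTGGTC (0.0503% of all) and the M1BP word GGTCACACT (1.33% of all) were at none. G and C made up 36.8% of the 13 windows at the median, with a range of 24.9% at ihog to 53.2% at cos, beside a median of 34.3% over all summits.

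rdx spans 13967061 to 14032057 on the minus strand of 3R and has 5 annotated transcripts from 4 transcription start sites (TSSs). All 9 summits lay inside 1 long intron of the longest transcripts, rdx-RB (intron of 55.8 kb) and rdx-RC (52.5 kb). They stretched over 34.7 kb, from 13983673 to 14018369. The short transcripts rdx-RA, rdx-RF and rdx-RE start downstream of every summit.

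The strongest rdx peak (14012614 to 14012828, summit 14012754) had a signal of 314 and ranked 328 of 3974. Its match ranked 314 in replicate 1 (signal 142) and 427 in replicate 3 (signal 161). It lay 13208 bp downstream of the nearest rdx TSS, that of rdx-RC, and was narrow, 215 bp where 3334 of the IDR peaks were 424 bp wide. The second (13983461 to 13983884, signal 277, rank 453) was the single promoter-proximal site, 310 bp upstream of the rdx-RE TSS. In replicates 1 and 3 it ranked 479 (signal 120) and 465 (signal 155). These 2 peaks thus stood within the top 500 of each list. The signal was written by the authors' peak caller, on a scale of its own in each list, so ranks rather than signals are compared between lists. Of the 9 rdx peaks 7 ranked higher in replicate 3 than in replicate 1. The share of all IDR peaks that did so was not worked out, so whether this count is particular to rdx is unknown.

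The other 7 rdx peaks were weaker, with IDR signals from 85.5 to 153. A pair of summits, at 14018143 (signal 153, rank 1462) and 14018369 (signal 87.4, rank 3567), were 226 bp apart in overlapping peaks. Replicate 3 had a separate entry for each, ranked 1237 and 2055, whereas in replicate 1 both overlapped the same entry, ranked 1711. Next to this pair was the peak at 14016982 (signal 128, ranks 2300 and 2000 in replicates 1 and 3). The middle of the intron held the peak at 13999713 (signal 141), ranked 1986 and 1561, whose summit was at the same base in all lists.

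At 2 of the weaker sites the replicates differed more, and replicate 1 ranked both outside its 3974 strongest entries. The peak at 13985122, 1759 bp upstream of the rdx-RE TSS, had a signal of 133 and ranked 1290 in replicate 3 but 4230 in replicate 1. The peak at 14009006, the weakest at rdx (85.5, rank 3679), ranked 2511 in replicate 3 and 9109 in replicate 1. Its neighbour at 14007607 (95.6, rank 3145) ranked 3749 and 3060 in replicates 1 and 3, within the first 3974 of both. Just below the IDR set, the pooled list held an entry of signal 79.6 (rank 4074, summit 14032326) at −269 bp from the TSS of rdx-RB and −45 bp from that of CG3061. Its match in replicate 1 ranked 5459 (30.9). In replicate 3 it overlapped 2 entries, the one with the nearer summit at rank 26198 (14.1) and one farther away at rank 3601 (48.6).

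**Figure D1:**
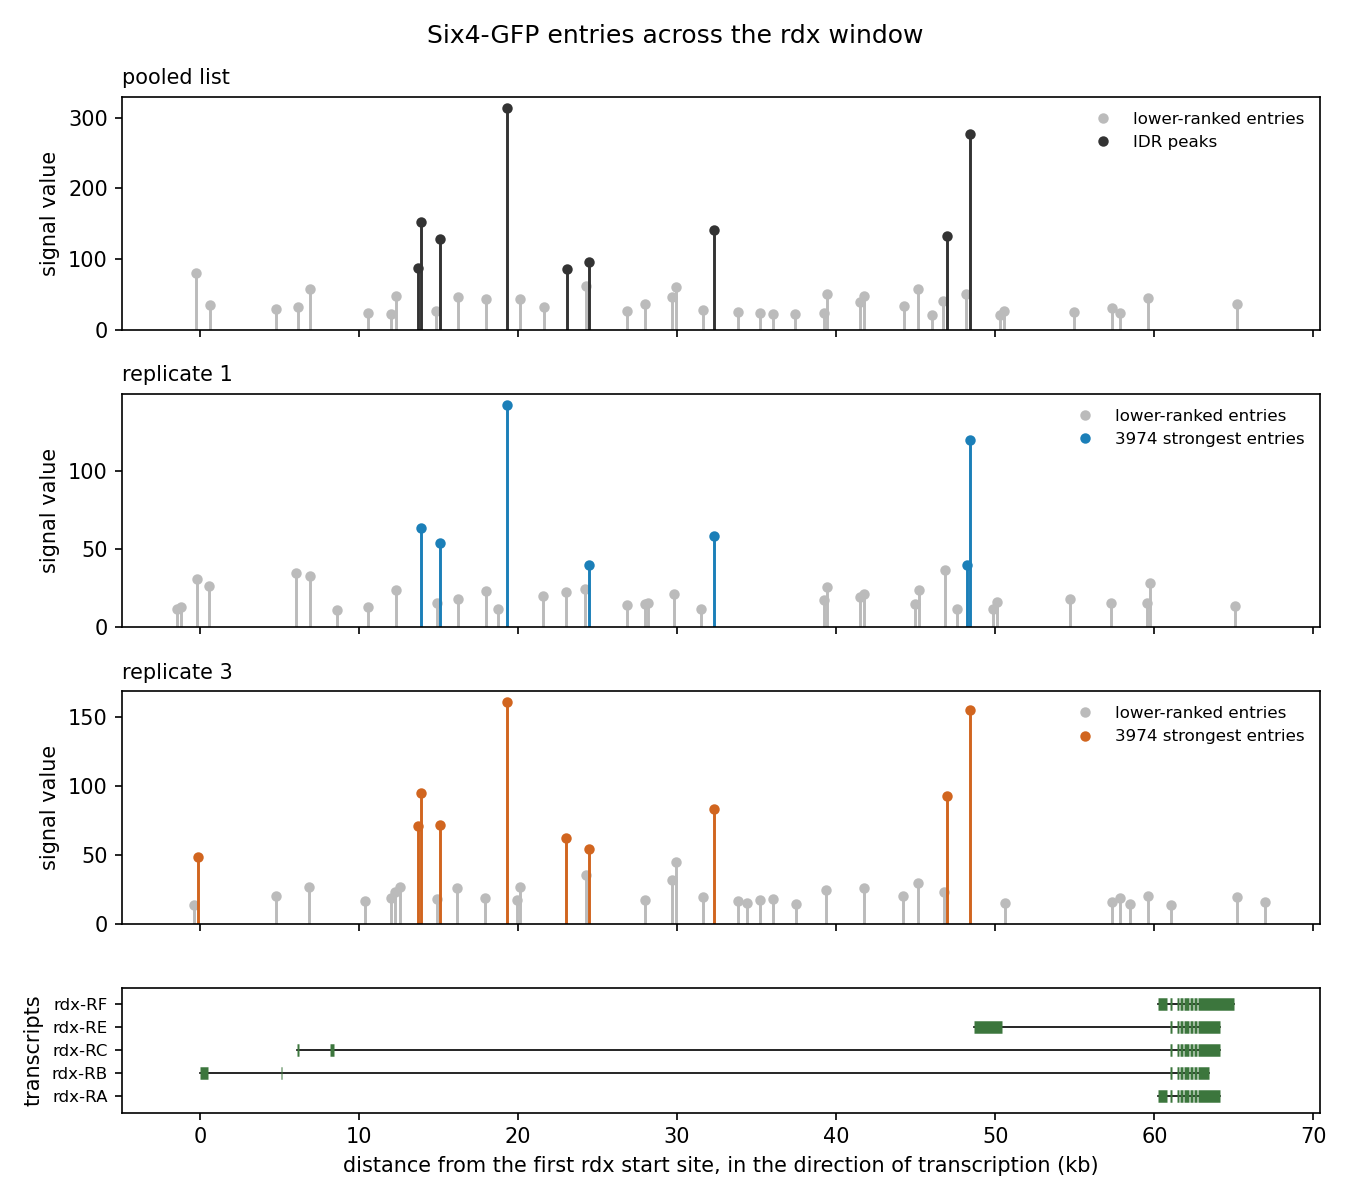
Signal values of all entries in the rdx window for the pooled list, replicate 1 and replicate 3 (vertical axes, arbitrary units of the authors' peak caller), against distance in kb from the rdx-RB start site in the direction of transcription. Coloured points are IDR peaks in the pooled panel and the 3974 strongest entries in the others, grey points are lower-ranked entries, green boxes are exons, and the 2 strongest sites, 314 and 277 in the pooled list, are the tallest in each panel.

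For its length rdx was rich in summits, though other genes matched it. Its window of 69.0 kb held 1.30 summits per 10 kb, beside 0.297 over the chromosome arms. Across all protein-coding genes 11 (0.0789%) had 9 or more summits, rdx included, and the highest count was 14. Among 160 other genes with a window within 20% of the length of rdx, the median was 1 summit and the range 0 to 11, 62 had none and 3 had 9 or more. With 9 summits, the closest genes by the strongest entry in both replicates were CG14434 and sbb, the only others with that count. Their summed absolute log2 ratios to rdx over the 2 replicates were 0.56 for CG14434 (strongest signals 135 and 225) and 1.23 for sbb (237 and 226). The CG14434 window was 19.3 kb long and that of sbb 83.1 kb.

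**Figure D2:**
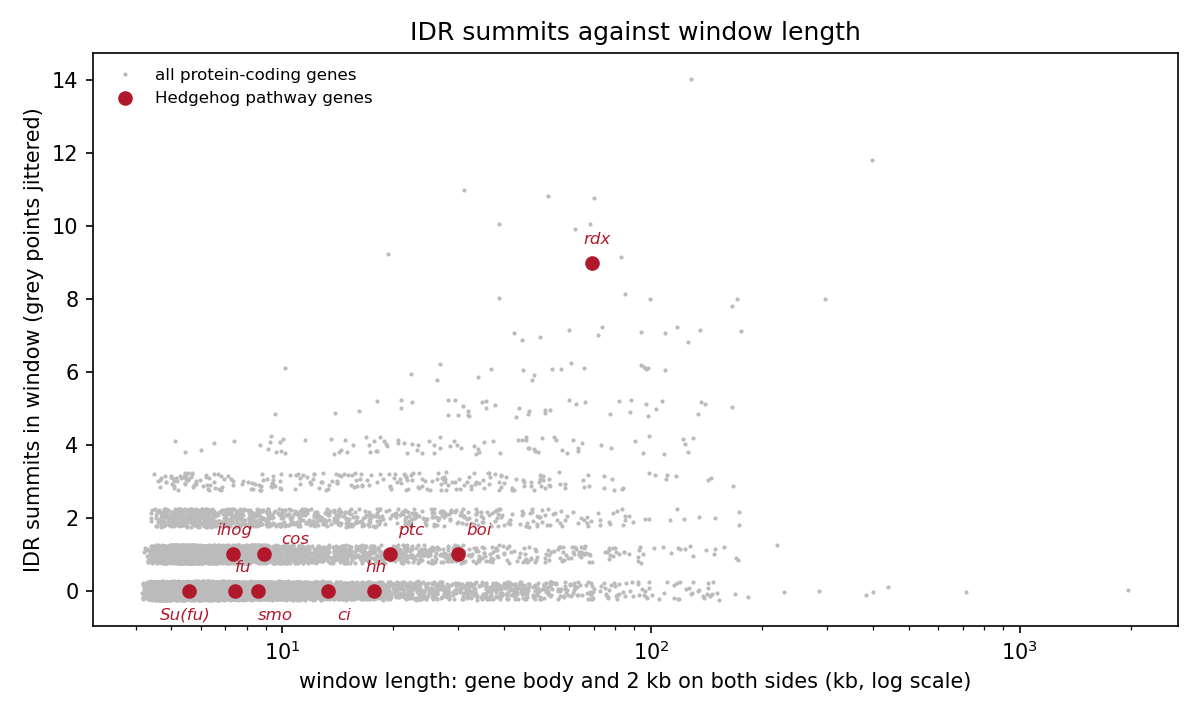
IDR summits per gene window (vertical axis, grey points shifted slightly at random) against window length in kb on a log axis, for 13945 protein-coding genes (grey) and the 10 Hedgehog pathway genes (red). rdx has 9 summits, and the other 9 genes have 1 or 0.

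Among the receptor genes, the co-receptor boi and the receptor ptc each had 1 summit in an intron. boi, on the minus strand of X (2444167 to 2470043), had its peak nearest to its own TSS. This peak had a signal of 182 and ranked 1085, and its matches ranked 1479 in replicate 1 (signal 68.4) and 984 in replicate 3 (signal 107). The next entry in the boi window, at 2464367, lay below the IDR set (signal 60.6, pooled rank 5994).

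The single ptc peak (2R, 8652209 to 8652632) lay 2772 bp downstream of the TSS of ptc (8649649 to 8665223, plus strand), with a signal of 121 and rank 2165. It was present in both replicates at similar ranks, 2592 (signal 49.8) and 2359 (65.3). When each IDR summit was given to the gene of its nearest TSS, ptc had 2, so another lay outside its window. Below the set the ptc window held further entries, 17 in all in the pooled list. At 8654382 (pooled signal 76.9, rank 4293) replicate 1 had its strongest ptc entry, ranked 1595 (65.7), but the match in replicate 3 ranked 21919 (15.6). At 8659696 (76.3, rank 4331) the order was the other way, 6685 in replicate 1 and 4001 in replicate 3. The entry at −232 bp from the ptc TSS was weaker (62.1, rank 5793).

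At ihog and cos the peak lay at the promoter of a neighbour. The ihog window (gene 6945464 to 6948808 on 2L, minus strand) included a peak at 6950047 to 6950470 with a signal of 174 and rank 1186. Its summit was 1451 bp from the ihog TSS but 52 bp upstream of the TSS of Gas41, in the gap between Gas41 and SA1. In replicate 1 the match ranked 1533 (66.9) with its summit 83 bp away, and in replicate 3 it ranked 992 (107) at the same base. At the ihog promoter itself the pooled list held an entry at −221 bp (57.2, rank 6488). The cos peak (2R, 7381621 to 7382044, signal 87.6, rank 3552) was 343 bp beyond the 3′ end of cos and 5282 bp from its TSS. It lay 36 bp inside Dscam1, the gene of a hypervariable adhesion receptor. It ranked 3241 in replicate 1 (43.0) and 4915 in replicate 3 (39.0), so it fell outside the 3974 strongest entries of replicate 3.

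The ligand gene hh and 4 genes of the signal transducers and effectors lacked an IDR summit. In the hh window (3R, gene 23128169 to 23141906) the strongest pooled entry had a signal of 40.7 and rank 10573, in an intron, and the strongest entries of the replicates ranked 10153 and 9791 at different sites. For smo, which encodes the signal transducer across the membrane, it ranked 6897 (54.9) at −33 bp from the TSS of CG11601. The replicates ranked it 7274 and 7818. The entry at the smo promoter, at −177 bp, ranked 10860 (40.0).

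The strongest pooled entries at ci and fu ranked below those of hh and smo, though in replicate 1 the strongest entry at ci ranked above that of hh. ci, on chromosome 4, had a strongest pooled entry of rank 11990 (37.4) at −941 bp from its TSS, while its strongest entries in the replicates ranked 7716 and 12147 at other positions. The fu window on X had an entry of rank 10871 (39.9), at −14 bp from the TSS of CG6659, with the strongest entries at ranks 13570 and 12159 in the replicates. Su(fu), with the shortest window of the 10 genes (5596 bp), had no pooled entry and none in replicate 1. Its single entry, in replicate 3, ranked 23926 of 28237. The IDR summit nearest to each gene body was 15206 bp away for hh, 3724 bp for smo, 10165 bp for ci, 11869 bp for fu and 26885 bp for Su(fu). In order these summits were nearest to the TSSs of Cow, CG3625, RpS3A, Rip11 and Men.

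**Figure D3:**
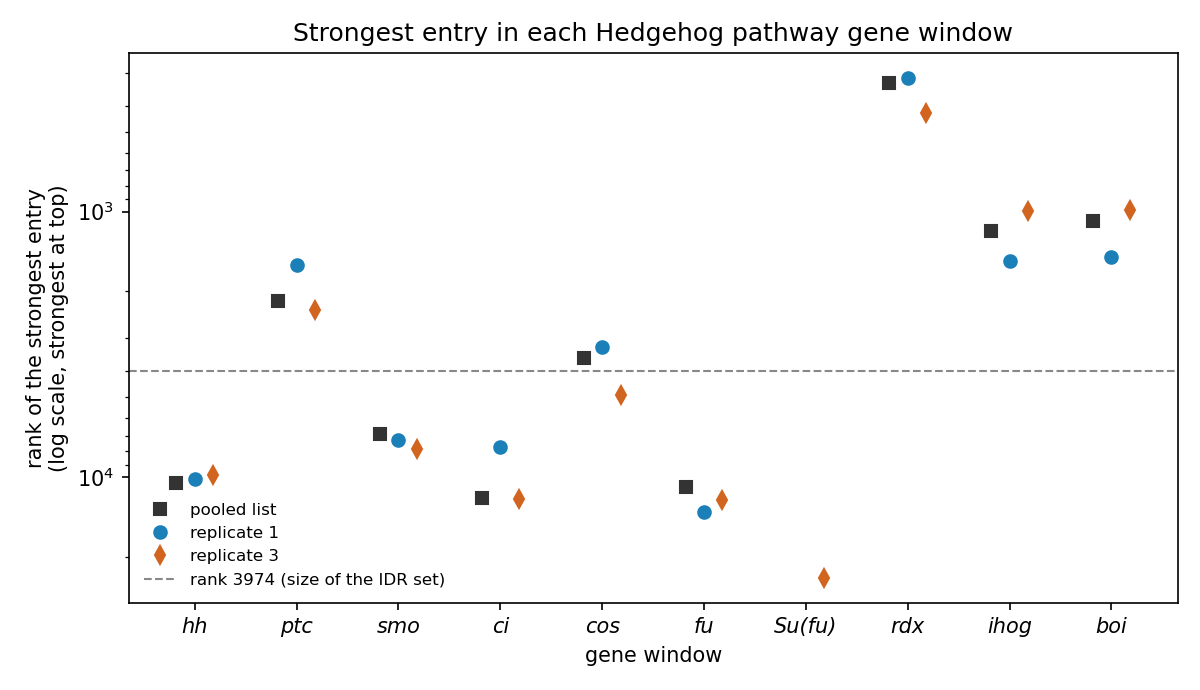
Rank of the strongest entry in each gene window (vertical log axis, strongest at the top) in the pooled list, replicate 1 and replicate 3. rdx (ranks 328, 314 and 427), ihog, boi and ptc lie above the dashed line at rank 3974 in each list, cos lies above it in 2 lists, and Su(fu) has an entry in replicate 3 only.

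The count of occupied genes was close to the sum over genes of like length. With a summit in 5 of 10 windows, the genes stood beside 31.2% of all protein-coding genes (4352 of 13945). Longer windows hold summits more often: the shares in the length deciles of the 10 genes ran from 25.2% for Su(fu) to 54.1% for rdx, ptc and boi, and sum to 4.24 genes. Within 500 bp of an own TSS there was a summit at 1 of the 10, rdx, beside 17.3% of all genes. When each summit was given to the nearest TSS, ptc, rdx and boi (3 of 10) had at least 1, beside 19.4% of all genes. Among all pooled entries, background included, 9 of the 10 windows held at least 1, beside 77.4% of all genes. The count of 9 or more is that of rdx itself, so its 1 gene of 10 beside 0.0789% is a description. In the decile of the longest windows 11 of 1395 genes (0.789%) had as many. No test was made of these counts.

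The 13 peaks were found in the replicates about as often as IDR peaks in general. Of the 3974 IDR peaks, 3973 were among the 3974 strongest pooled entries, so the set followed pooled signal and not presence in each replicate. Of the 13, 10 overlapped one of the 3974 strongest entries of replicate 1 and also one of replicate 3, beside 78.2% of all IDR peaks. The exceptions were the cos peak in replicate 3 and the rdx peaks at 13985122 and 14009006 in replicate 1. All 13 overlapped some entry of both whole lists, with summits a median of 9 bp apart in replicate 1 and 10 bp in replicate 3. The median signal of the 13 peaks was 133, beside 128 for the whole IDR set. Of the 13 summits 11 were intronic, 9 of them in the same rdx intron, beside 46.8% of all IDR summits.

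**Figure D4:**
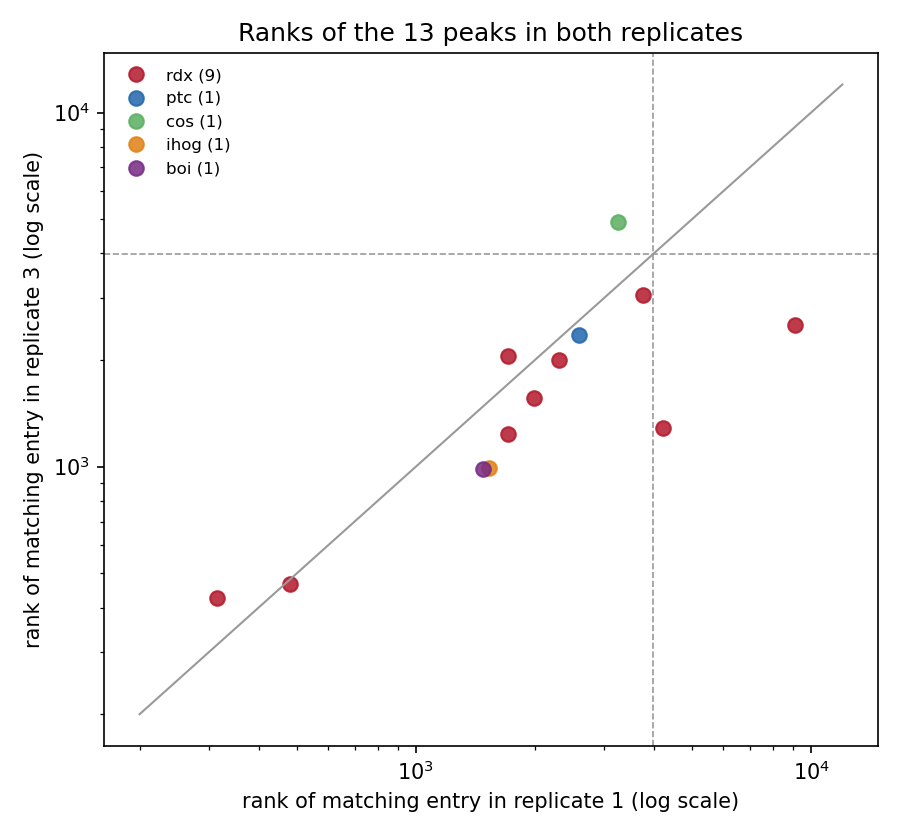
Rank of the matching entry in replicate 1 (horizontal) and replicate 3 (vertical) for the 13 peaks, on log axes, with dashed lines at rank 3974 and a line of equal ranks. The 2 strongest rdx peaks, at 314 and 427 and at 479 and 465, lie near that line, and the rdx peak at 9109 and 2511 lies farthest from it.

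Other genes of the pathway were described in 3 lists by role. Genes of ligand release and spread had a summit in 5 of 9 windows (55.6%, beside 31.2% of all genes and 44.4% at like lengths). dlp, a glypican gene, held 5 summits on 3L (signals 268, 231, 196, 190 and 180), 1 of them 158 bp from its own TSS and the strongest 33549 bp from it. The strongest was nearer to the TSS of CG43121, 6287 bp away. The exostosin genes sotv (172, rank 1207) and ttv (132, rank 1886), which build the heparan sulfate of such glypicans, had summits at −129 and −79 bp from their TSSs. dally, another glypican, had 1 intronic summit (126, rank 2047), 14456 bp from its own TSS and 5499 bp from that of CG32026. disp, needed to release the ligand, had 1 at −133 bp (89.7, rank 3428). The windows of rasp, botv and sfl had none.

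Of 18 kinases, ligases and cofactors that act on Smoothened or Ci, 11 had a summit (61.1%, beside 45.5% at like lengths). In 6 of these 11 windows the strongest summit was nearest to a TSS of the listed gene, and in the others to that of another gene. The strongest peak in a window of these lists was in that of Gprk2, a kinase of Smoothened (946, rank 12). Its summit lay 74 bp from the TSS of PNPase and at −579 bp from that of Gprk2. gish, a casein kinase gene, had a summit at −174 bp (792, rank 22), ranked 26 in replicate 1 and 18 in replicate 3. sgg, a kinase that phosphorylates Ci, had one at −217 bp (333, rank 288). Weaker were nej, the CBP co-activator (280, at −686 bp), wdb, a phosphatase subunit (227, intronic), and dco, another casein kinase (175, at −325 bp). Cul3, the scaffold of the ligase that rdx works with, had none, and its strongest pooled entry ranked 4866 (70.4). Gprk1 and Cul1 had none either.

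Targets and upstream patterning genes had a summit in 4 of 14 windows (28.6%, beside 43.7% at like lengths). This count depended on the rule. When each summit was given to the nearest TSS, 7 of the 14 had at least 1, beside 19.4% of all genes. In the windows, the genes with a summit were as follows. They were CycE (256, at −574 bp), dpp (173, intronic), slp1 (162) and kn (109, at the promoter of BEAF-32). No summit fell within 500 bp of an own TSS in this list. en and inv, which activate hh, and wg, its partner in segment polarity, had none, and their strongest pooled entries ranked 5873, 8130 and 8077. In all 3 lists together 20 of 41 genes had a summit (48.8%, beside 44.6% at like lengths). The strongest summit was nearest to an own TSS at 12 of these 20.

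**Figure D5:**
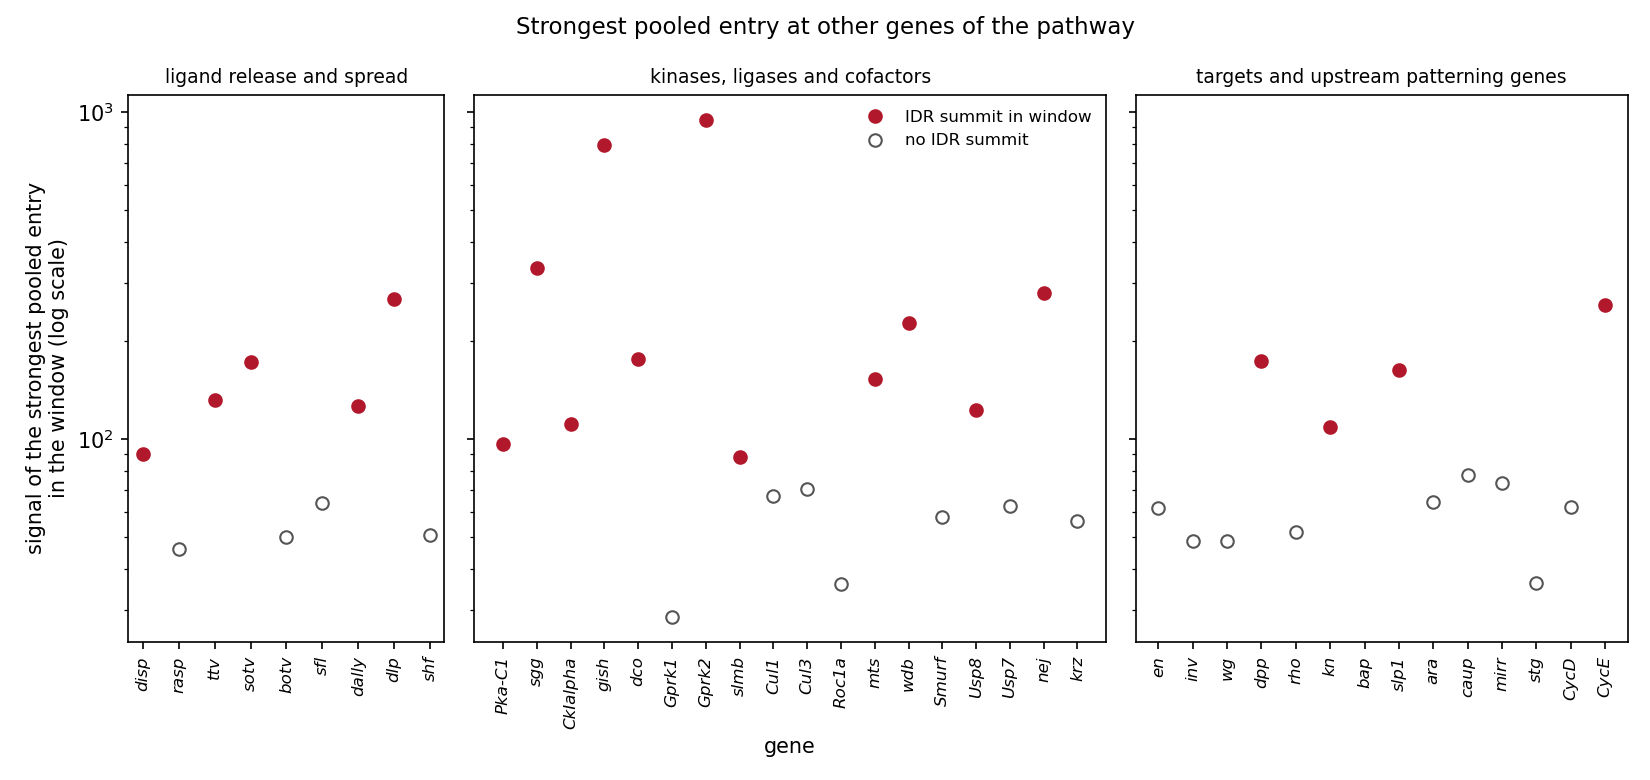
Signal of the strongest pooled entry in the window (vertical log axis, units of the authors' peak caller) for the 41 genes of the 3 lists. Filled points have an IDR summit and open points none, bap has no pooled entry, and the highest point is Gprk2 at 946.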

How the data were processed

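Peak lists of ChIP-seq from 2 samples, biological replicates 1 and 3 of 1 group, were used. The deposited listing describes 1 list of peaks with background for each replicate, another for both replicates pooled, and an IDR set derived from these. Signal values and −log10 q values are the authors', as deposited. Not given in the sources used here are the aligner, peak caller, thresholds and control library. Read counts are unknown, so no interval could be given for a signal value. Lists on dm3 were not used. The sequence at the boi peak is not reported here.

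From the dm6 lists, summits (counted from 1) were placed in gene windows of Ensembl release 115, whose arms matched the Release 6 genome. Entries were ranked by signal. A match in a replicate was an entry overlapping by at least 1 bp, the nearest summit being taken. Motif words were searched on both strands within 100 bp. The occupancy counts were tested on simulated summits placed at 200 genes. Python 3.11.15, pandas 2.3.3 and numpy 2.4.6 were used. The genes and lists were chosen with earlier results of these data known, so counts stand beside their background without a test. Named were all 10 genes, in each list the 6 with the strongest summit and up to 3 without, neighbours nearest to a summit, and genes most like rdx (3 sought, 2 found). Nearest TSSs of the strongest lower-ranked entries are named too. The replicates come from separate biosamples per the labels.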

Additional observations from a re-analysis of the deposited data

How the results depend on the processing

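The 9 summits of rdx were found with the gene body alone and with the nearest TSS rule. There were 10 with 5 kb flanks, where ptc had 3 and smo 2, and 5 among the 1987 strongest IDR peaks. With 5 kb flanks 6 members had a summit, beside 43.7% of all genes. The summits added by the 5 kb flanks were nearest to TSSs of other genes: Acsl at ptc, CG3625 at smo and CG9922 at rdx. With the gene body alone 3 members, 10.4% of all genes and 13 genes of the 3 lists had a summit. Within 2 kb of an own TSS 3 members had a summit, beside 24.4% of all genes. These members had 4 summits, 2 of them at rdx. The nearest TSS rule left 3 members, 19.4% of all genes and 19 listed genes. Of these listed genes 5 were of ligand release and spread, 7 kinases, ligases and cofactors, and 7 targets and patterning genes. The 1987 strongest peaks left 3 members with 7 summits, 18.9% of all genes and 13 listed genes. The whole pooled list gave 9 members, 100 summits, 77.4% of all genes and 40 listed genes. Shorter windows and lists hold fewer summits by construction, and no other cause was tested. Taking the 3974 strongest entries of 1 replicate in place of the IDR set gave 4 to 5 members and 12 to 13 summits. With either replicate 31.1% of all genes had a summit. At rdx there were 10 without replicate 1 and 7 without replicate 3, and cos had none without replicate 1. TGATAC lay within 250 bp of 1 of the 13 summits (13.1% of all IDR summits) and within 50 bp of 0 (3.47%), windows chosen after seeing the data. Matches by summits within 100 bp left 9 peaks with a partner in both replicates, and an overlap of 50% left 8. No paired analysis was possible because there is 1 group. Whole embryos and unknown depth limit what weak entries can show.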

Other observations

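At shf, a gene of the ligand spread list that encodes a secreted protein needed for Hedgehog to spread, both replicates held a strong entry that overlapped no entry of the pooled list analysed here. The gene was singled out after its values were seen. On X the entry spanned 6771035 to 6771163 in replicate 1 (signal 89.2, rank 867) and 6771035 to 6771217 in replicate 3 (signal 146, rank 524). Its summits lay 346 and 338 bp beyond the 3′ end of shf and 108 and 100 bp from the TSS of Coq7, a gene of coenzyme Q synthesis. In each replicate 2 of the 2000 strongest entries overlapped no pooled entry. shf therefore counts as a gene without a summit in the IDR set and as a gene with one in either replicate alone, and the cause was not tested.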
